A study of Mus musculus with 10 samples.

Results

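The genes described here are 32 members of the glycolytic pathway and of the response to low oxygen, 16 glycolytic enzymes and 16 other hypoxia genes, chosen by name and read on each array by 1 probe set a gene, the probe set with the highest mean intensity over the 10 arrays. Of the 32, 29 had a probe set of their own, 13 of the enzymes and all 16 of the others, among 18193 genes of the array with a probe set of their own. All 29 were tested, among 12502 genes tested. Gpi1 and Eno1 had no probe set in the annotation used here, and Gapdh was read singly only by 3 control probe sets of the array, whose values are given apart.

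The cells were mouse erythroleukemia (MEL) cells, a line of virus-transformed red cell precursors. Each of 4 subclones (FBB1.5, FBB1.7, FBB1.10, FBB1.11) stably carries BCL11A with FLAG-Biotag, a peptide tag and a site for biotin, and each was measured on 2 arrays (8 in all). The parental Mel-BirA line was measured on 2 arrays, and it carries, like all the subclones, the biotin ligase BirA. BCL11A is a transcription factor known for holding embryonic and fetal globin genes silent. The labels give no oxygen level, glucose level or culture density. Each subclone is 1 line, so within it the effect of the construct and the history of the clone cannot be told apart, and no line with an empty construct was analysed here.

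Glycolysis turns glucose into pyruvate, and lactate dehydrogenase then turns pyruvate into lactate, which lets cells make ATP without oxygen. When oxygen is scarce, prolyl hydroxylases of the EGLN family stop marking the alpha subunit of hypoxia-inducible factor (HIF) for destruction, and HIF switches on genes of glycolysis, glucose uptake, blood vessel growth, mitophagy and its own feedback. Red cell precursors depend on glycolysis increasingly as they mature, since mature red cells have no mitochondria.

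HIF binds DNA at a short core sequence, and promoters are shown here for 5 members whose transcripts differed between the lines, 4 enzymes and 1 other hypoxia gene. Sequences are RefSeq's for mouse assembly GRCm38.p6, the 250 bases before an annotated start site, written 5′ to 3′ on the gene's strand. Capitals mark ACGTG, a form of that core, on either strand, so CACGT on the strand shown. CACGTG, the E-box bound by MYC and related factors, reads as ACGTG on both strands and stands in capitals as a whole.
Ldha: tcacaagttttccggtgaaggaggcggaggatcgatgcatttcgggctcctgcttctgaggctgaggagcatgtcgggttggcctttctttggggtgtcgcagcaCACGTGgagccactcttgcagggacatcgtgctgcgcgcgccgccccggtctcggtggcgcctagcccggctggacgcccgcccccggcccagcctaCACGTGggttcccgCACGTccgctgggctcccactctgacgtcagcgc
Pgk1: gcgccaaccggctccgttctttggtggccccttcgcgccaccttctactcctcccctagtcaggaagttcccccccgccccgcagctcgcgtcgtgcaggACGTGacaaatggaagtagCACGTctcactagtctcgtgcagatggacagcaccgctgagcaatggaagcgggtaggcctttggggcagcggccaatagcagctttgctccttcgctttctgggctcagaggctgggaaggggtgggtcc
Pgam1: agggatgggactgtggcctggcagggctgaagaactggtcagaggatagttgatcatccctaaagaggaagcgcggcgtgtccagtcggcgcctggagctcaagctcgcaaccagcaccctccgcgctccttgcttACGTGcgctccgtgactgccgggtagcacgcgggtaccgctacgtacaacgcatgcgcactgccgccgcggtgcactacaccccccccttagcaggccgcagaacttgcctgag
Tpi1: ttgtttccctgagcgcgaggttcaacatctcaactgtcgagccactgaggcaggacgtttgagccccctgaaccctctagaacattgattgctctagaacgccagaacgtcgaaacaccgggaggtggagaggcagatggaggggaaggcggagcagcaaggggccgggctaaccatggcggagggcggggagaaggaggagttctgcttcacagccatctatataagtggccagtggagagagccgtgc
Ankrd37: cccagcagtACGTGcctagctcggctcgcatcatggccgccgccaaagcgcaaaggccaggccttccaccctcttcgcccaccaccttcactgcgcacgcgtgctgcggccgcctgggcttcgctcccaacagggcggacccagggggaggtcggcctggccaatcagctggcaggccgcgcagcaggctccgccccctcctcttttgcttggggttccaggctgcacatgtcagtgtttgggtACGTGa
The Ldha window (chr7:46845554-46845803, plus strand) holds 5 matches, 141, 140, 44, 43 and 30 bases before the start, and 4 of these are the 2 strands of 2 E-boxes. A further Ldha start (chr7:46846832-46847081) has 0 matches. The Pgk1 window (chrX:106186850-106187099, plus strand) holds 2 matches, 146 and 127 bases before the start, and the Pgam1 window (chr19:41911621-41911870, plus strand) holds 1 at 110 bases. The Tpi1 window (chr6:124814159-124814408, minus strand) has 0 of these letters, which says nothing of HIF at Tpi1. The Ankrd37 window (chr8:45999851-46000100, minus strand) holds 2 matches, at 237 and 2 bases. These 5 genes are examples from the 9 members that differed between the subclones. Of those not shown, Pkm had 1 match at one start and 0 at another, and Egln1 had 1. Bnip3 had only the 2 strands of 1 E-box, and Ndrg1 had no promoter entry.

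The promoter table matched 30 of the 32 members, all but Ndrg1 and Slc2a3. ACGTG stood on either strand in a window of 19 of the 30 (63.3%), of 7 of 16 enzymes (43.8%) and of 12 of 14 other hypoxia genes (85.7%), against 4998 of 27025 genes of the table (18.5%). Members often have several starts, and counted by window 23 of 46 member windows held it and 5444 of 32851 windows of the table (16.6%). Base composition was not matched. The members were chosen by name as genes of glycolysis and the hypoxia response, so a share above that of all genes was likely beforehand. It says nothing of these cell lines. These counts describe letters and not binding. Both HIF and MYC are known to act on many of these genes.

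Over the whole set of arrays, medians of the deposited intensities lay between 29.6 and 31.6. Signal at the 3' end of actin over that at its 5' end, which grows as RNA breaks down, was 1.47 in FBB1.5 1 and 1.06 to 1.17 in the other 7 tagged arrays, against 1.80 in parental 2 and 1.22 in parental 1. Of 7 Bcl11a probe sets 6 were tested, and 1 of them read 62.1 and 95.8 on the FBB1.5 arrays, 62.4 and 65.0 on those of FBB1.7, 233 and 165 on those of FBB1.10 and 245 and 181 on those of FBB1.11, against 39.7 and 35.9 in parental cells. It rose in FBB1.5, FBB1.10 and FBB1.11 by 0.80, 1.98 and 2.08 on the log2 scale and stood at 0.57 in FBB1.7 (adjusted p = 0.041, 0.00017, 7.1e-05 and 0.071, limma). Another fell by 0.47 in FBB1.7 (adjusted p = 0.015). Of 10 erythroid marker genes with a probe set of their own, 8 were above the table median of 30.5 on all 10 arrays (Gata1, Klf1, Tal1, Nfe2, Epor, Sptb, Alas2 and Tfrc). Slc4a1, the red cell anion exchanger, and the Hba-a1 probe set were below it on all. Of 8 mast cell markers 4 were above it on all arrays and Ms4a2 on none, and their summed intensity was 991 to 6573 on tagged arrays, against 5687 to 6820 on parental arrays. Most of this was Mcpt2, a mast cell protease, at 5522 and 4454 on the FBB1.5 arrays, 716 and 630.1 on those of FBB1.7, 2356 and 1836 on those of FBB1.10 and 1519 and 1456 on those of FBB1.11, against 5974 and 4933 in parental cells. Mcpt2 was thus below both parental arrays in FBB1.7, FBB1.10 and FBB1.11, and FBB1.5 overlapped them. Not all the mast cell markers moved this way, and Tpsb2 read 60.9 and 47.5 on the FBB1.7 arrays, against 38.5 and 38.9 in parental cells. The part of the mast cell markers in the results below was not tested. With the actin ratio as a covariate, 1 of the 3 member calls for the mean of the subclones was left (198 of all probe sets, against 887 without it). The calls lost were Pkm and Ldha for the mean (adjusted p = 0.24 and 0.063) and in FBB1.10 (0.080 and 0.073), Pgam1, Egln1 and Ndrg1 in FBB1.7 (0.19, 0.13 and 0.17) and Ankrd37 in FBB1.5 (0.052). Their differences kept their direction, and without the 2 arrays of high actin ratio only Pgam1 in FBB1.7 (0.10) and Pkm for the mean (0.23) were lost among the member calls.

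Several enzymes of the later steps of glycolysis were higher in FBB1.7, and 2 of them in FBB1.10, while Ndrg1, a hypoxia- and stress-induced gene, was lower in 3 of the 4 subclones. The differences of the 13 tested enzymes on their main probe sets were small, at most 1.26-fold, and those of Ndrg1 reached 0.417 times the parental level. Gapdh, read only by control probe sets and left out of the counts and medians, rose more. Its 3 probe sets passed at 1.31- to 1.43-fold in FBB1.7 and 1.27- to 1.37-fold in FBB1.10. Differences are given on the log2(intensity + 16) scale as the subclone minus parental, from limma with Benjamini-Hochberg adjustment over 25061 probe sets at 0.05. Of the 29 members, 7 passed in FBB1.7 (5 higher), 3 in FBB1.10 (2 higher), and 1 each in FBB1.5 and FBB1.11 (both lower). Of all tested probe sets 10.1% passed in FBB1.7 (4.55% higher and 5.5% lower), 1.8% in FBB1.10 (1.08% and 0.718%), 2.02% in FBB1.5 (1.29% and 0.734%) and 0.188% in FBB1.11 (0.0758% and 0.112%). For the mean of the 4 subclones against parental, 3 of 29 passed, Pkm and Ldha higher and Ndrg1 lower, against 3.54% of all (1.98% higher and 1.56% lower). Between the subclones 9 of 29 differed by a moderated F test, against 7.24% of all. The 4 comparisons share the parental arrays, so their calls are not independent of each other. The labels do not say whether paired arrays stem from separate cultures, and p-values then reflect no more than array-to-array spread, possibly technical. In RNA of whole cultures, fewer cells of a kind and less RNA per cell cannot be told apart.

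In the test that lets clones vary, where the line is a random block, 0 of the 29 members passed, and 0% of all probe sets (limma, smallest adjusted p 0.43 among members). An unadjusted p under 0.05 was seen for 1 of the 29, against 2190 of all 25061 tested probe sets. By every fit that treats the lines as fixed, the calls of members rest on the variance trend over intensity, since without it 0 members passed against parental in any subclone or for their mean, and 1 (Ndrg1) between the subclones.

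**Figure D1:**
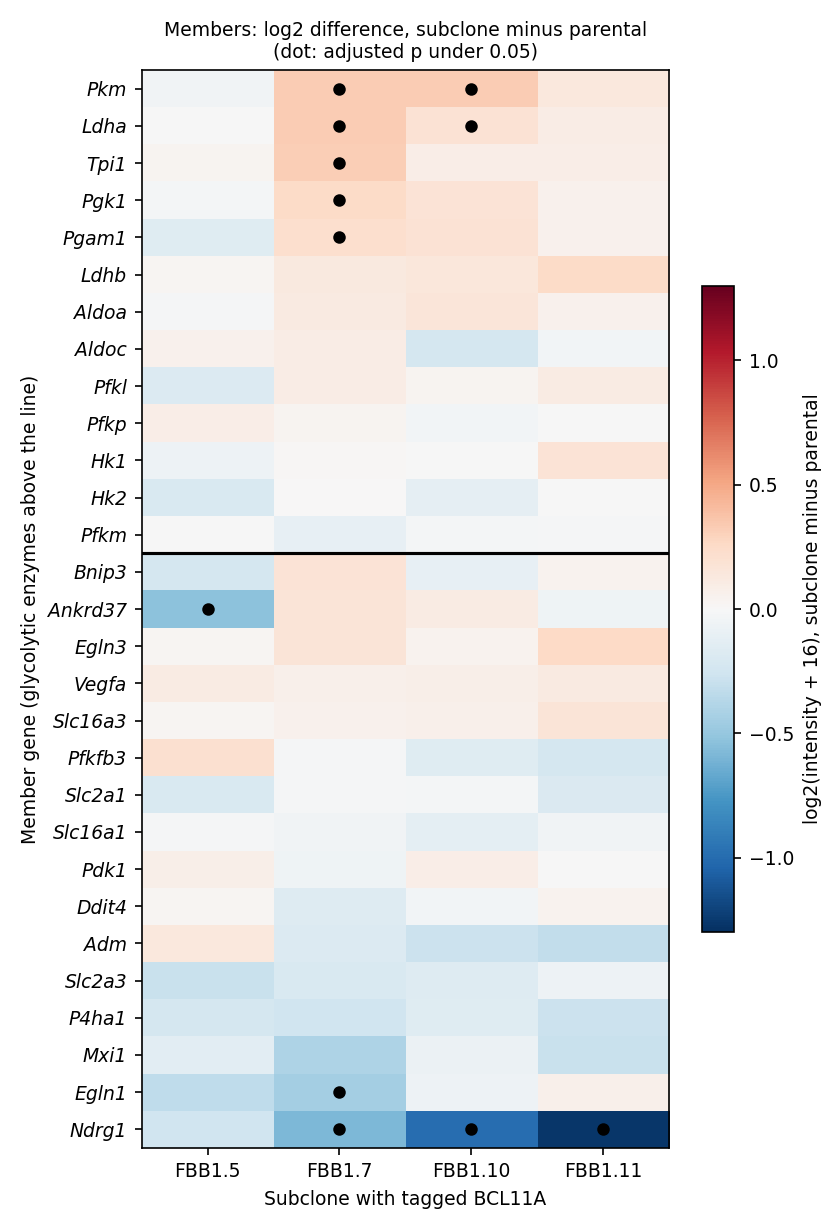
Colour gives the log2 difference of each of the 29 measured members, subclone minus parental, on the log2(intensity + 16) scale, with the 4 subclones in columns and the 13 glycolytic enzymes above the line. Dots mark an adjusted p under 0.05. They fall on 5 enzymes in FBB1.7, on 2 in FBB1.10, on Ndrg1 in FBB1.7, FBB1.10 and FBB1.11, on Egln1 in FBB1.7 and on Ankrd37 in FBB1.5.

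The enzymes of the first steps did not pass in any comparison on their main probe set. Hk1 and Hk2 are hexokinases, which trap glucose in the cell as glucose 6-phosphate. Pfkp, Pfkl and Pfkm encode the platelet, liver and muscle forms of phosphofructokinase, the main control point of the pathway, and Aldoa and Aldoc are aldolases, which split the sugar into triose phosphates. Over these 7 genes and the 4 subclones the difference from parental lay between -0.23 (Aldoc in FBB1.10) and 0.18 (Hk1 in FBB1.11). Aldoa stood at 9250 and 9300 on the FBB1.5 arrays, 10440 and 9928 on those of FBB1.7, 10790 and 10126 on those of FBB1.10 and 9982 and 9509 on those of FBB1.11, against 9549.95 and 9249.63 in parental cells. Both arrays of FBB1.7 and FBB1.10 lay above both parental arrays, those of FBB1.5 and FBB1.11 did not, and the differences of 0.12 and 0.15 in FBB1.7 and FBB1.10 did not pass (adjusted p = 0.12 and 0.10, limma). Between the subclones, Aldoa missed the threshold on this probe set (adjusted p = 0.081, moderated F test) and passed on 2 of its 5 probe sets (0.043 and 0.041), calls lost without either array of FBB1.5 or FBB1.7, without FBB1.10 1 and, for the second, without FBB1.11 2 (up to 0.21). A dimmer Hk1 probe set read 520 and 621 on the FBB1.5 arrays, 666 and 585 on those of FBB1.7, 622 and 649 on those of FBB1.10 and 762 and 624 on those of FBB1.11, against 531 and 359 in parental cells. Only FBB1.5 1 fell below the higher parental array. This probe set rose by 0.51 in the mean of the subclones (adjusted p = 0.032, limma) and by 0.50 in FBB1.7 (0.049), and the first call ended without parental 2, FBB1.5 2, FBB1.7 1, FBB1.10 2 or FBB1.11 1 (at most 0.46), and the second without any array but parental 1 or FBB1.5 2 (up to 0.40). The main Hk1 probe set stood at 0.03 in the mean of the subclones, so the 2 disagree.

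Triose phosphate isomerase (Tpi1), which interconverts the triose phosphates, is the first enzyme after the split. Its intensity was 3287 and 3281 on the FBB1.5 arrays, 4069.8 and 3984 on those of FBB1.7, 3552 and 3296 on those of FBB1.10 and 3459 and 3368 on those of FBB1.11, against 3114 and 3315 in parental cells. Both FBB1.7 arrays stood above all 8 others, and the other subclones overlapped the parental pair or lay just above it. Tpi1 rose by 0.32 in FBB1.7 (SE 0.057, adjusted p = 0.0025, limma), on 2 of its 3 probe sets. That call held whichever array was left out. After quantile normalization it was lost (0.13, adjusted p = 0.18), while the other called probe set still passed (0.22, adjusted p = 0.013).

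Gapdh, glyceraldehyde-3-phosphate dehydrogenase, couples the pathway to NADH, and its 3 control probe sets read the 3' end, the middle and the 5' end of the transcript. The 3' probe set read 8447 and 8917 on the FBB1.5 arrays, 10733 and 10348 on those of FBB1.7, 10301 and 10149 on those of FBB1.10 and 9378 and 8998 on those of FBB1.11, against 8200.1 and 7866 in parental cells. All tagged arrays were above both parental arrays. With the control probe sets kept in the fit, the 3', 5' and middle probe sets rose in FBB1.7 by 0.39, 0.51 and 0.50 and in FBB1.10 by 0.35, 0.43 and 0.45 (limma, adjusted p at most 0.013). None of the 3 passed in FBB1.5 or FBB1.11, at 0.11 to 0.19 and 0.19 to 0.32. All 3 passed for the mean of the subclones (adjusted p = 0.0014, 0.0056 and 0.0012, limma). With the line as a random block none did (0.42, 0.38 and 0.42). Between the subclones the 3' and middle probe sets differed (adjusted p = 0.003 and 0.0027, moderated F test) and the 5' one did not pass (0.062). The 5' probe set lost its call in FBB1.10 without parental 2, FBB1.10 1 or FBB1.10 2 (adjusted p up to 0.12). Gapdh is often used as a loading control.

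Phosphoglycerate kinase 1 (Pgk1) makes the first ATP of the later steps. It read 7727 and 7527 on the FBB1.5 arrays, 9671 and 8777 on those of FBB1.7, 8805 and 8656 on those of FBB1.10 and 8175 and 7878 on those of FBB1.11, against 7543 and 7947 in parental cells. FBB1.7 and FBB1.10 lay above both parental arrays on both of theirs. Pgk1 rose by 0.25 in FBB1.7 (SE 0.049, adjusted p = 0.005, limma), on all 3 of its probe sets, and stood at 0.17 in FBB1.10 (adjusted p = 0.096). Without FBB1.7 1 the call of its main probe set ended (adjusted p = 0.089), and after quantile normalization the other 2 probe sets no longer passed (adjusted p = 0.45 and 0.30). Phosphoglycerate mutase 1 (Pgam1), which moves the phosphate before the enolase step, read 3418 and 3183 on the FBB1.5 arrays, 4325 and 4274 on those of FBB1.7, 4385 and 4006 on those of FBB1.10 and 3971 and 3663 on those of FBB1.11, against 3738 and 3624 in parental cells. FBB1.5 was below parental on both arrays, and FBB1.7 and FBB1.10 above. Pgam1 rose by 0.22 in FBB1.7 (SE 0.062, adjusted p = 0.033, limma), and did not pass in FBB1.5 (-0.16, adjusted p = 0.24) or FBB1.10 (0.19, 0.15). Its call ended without FBB1.7 1, FBB1.7 2 or parental 2 (adjusted p up to 0.17), and after quantile normalization it stood at 0.03 (adjusted p = 0.83).

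Pyruvate kinase (Pkm) carries out the last step to pyruvate. Its intensity was 5321 and 5085 on the FBB1.5 arrays, 7009 and 6520 on those of FBB1.7, 6907 and 6544 on those of FBB1.10 and 6221 and 5611 on those of FBB1.11, against 5460 and 5268 in parental cells. FBB1.7, FBB1.10 and FBB1.11 were above both parental arrays, and FBB1.5 overlapped them. Pkm rose by 0.33 in FBB1.7 (SE 0.058, adjusted p = 0.0022, limma) and by 0.33 in FBB1.10 (adjusted p = 0.011). The FBB1.7 call held whichever array was left out, and that of FBB1.10 ended without FBB1.10 1 (adjusted p = 0.12). In the mean of the subclones Pkm rose by 0.19 (adjusted p = 0.035), a call lost without parental 2, FBB1.5 1, FBB1.7 1, FBB1.10 1 or FBB1.11 1 (adjusted p at most 0.23) and after quantile normalization (0.10, adjusted p = 0.25).

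Lactate dehydrogenase A (Ldha), the subunit that favours lactate and a textbook HIF target, had the most precise difference of the enzymes. It read 8512 and 8438 on the FBB1.5 arrays, 10786 and 10652 on those of FBB1.7, 9661.5 and 9739 on those of FBB1.10 and 9237 and 9034 on those of FBB1.11, against 8406 and 8646.5 in parental cells. Arrays of FBB1.7, FBB1.10 and FBB1.11 were all above both parental arrays, the 2 of FBB1.7 were the highest of the 10, and FBB1.5 lay within the parental range. Ldha rose 1.26-fold in FBB1.7, by 0.33 (SE 0.038, adjusted p = 0.00012, limma), and by 0.19 in FBB1.10 (adjusted p = 0.023). It did not pass in FBB1.11 (0.10, adjusted p = 0.32) or FBB1.5 (-0.01, adjusted p = 0.95). The FBB1.7 call held whichever array was left out and after quantile normalization (0.30, adjusted p = 0.00014), and that of FBB1.10 ended without either FBB1.10 array (adjusted p up to 0.14). The mean of the subclones rose by 0.15 (adjusted p = 0.013), a call lost without parental 1 (adjusted p = 0.050) or without both arrays of FBB1.7 (0.09, adjusted p = 0.22). Ldhb, the subunit that favours pyruvate, passed in no comparison, and its difference in FBB1.7 was 0.13 (adjusted p = 0.61).

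**Figure D2:**
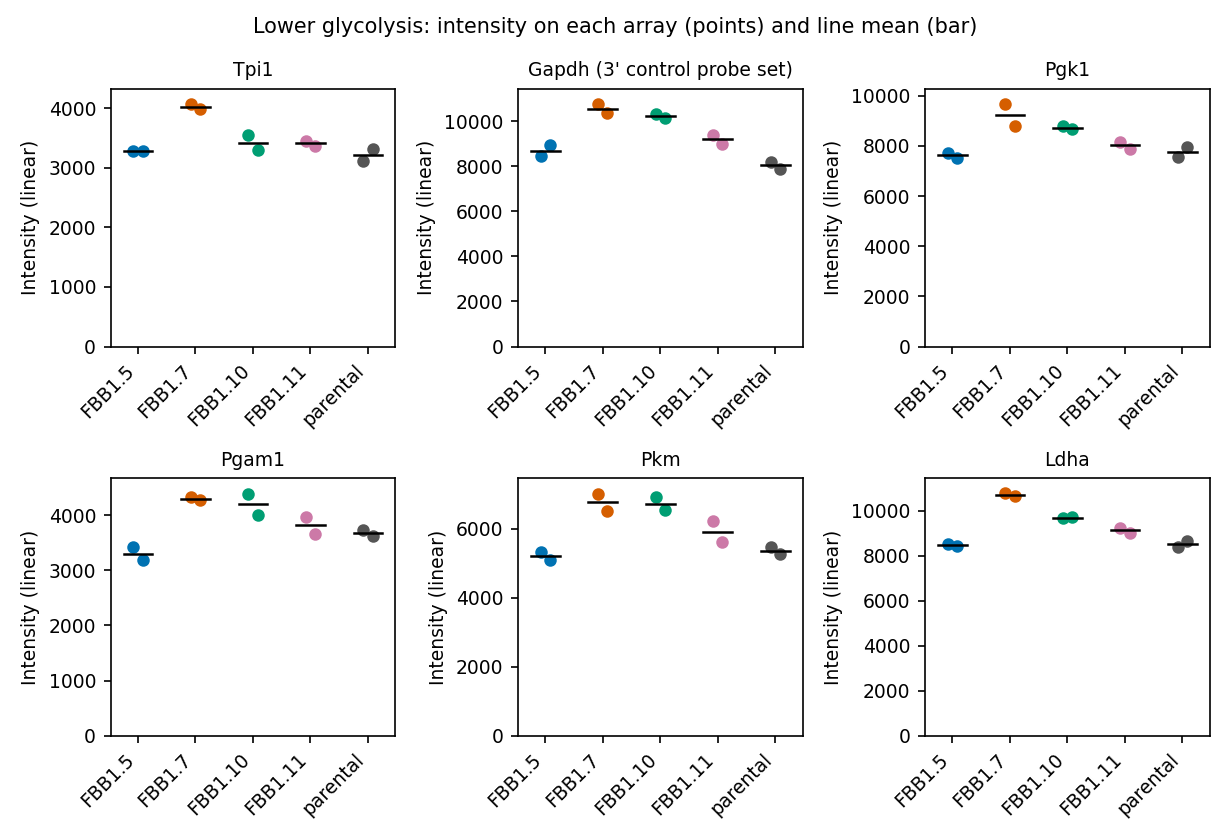
Each panel plots linear intensity (vertical axis, from 0) on every array of the 4 subclones and the parental line for Tpi1, the 3' control probe set of Gapdh, Pgk1, Pgam1, Pkm and Ldha, with points for arrays and bars for line means. FBB1.7 was above parental cells on both arrays in every panel, and FBB1.5 was close to parental cells in most (Ldha at 8512 and 8438 in FBB1.5, against 8406 and 8646.5 in parental cells).

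The enzymes that rose are read by some of the brightest probe sets of the array, and bright probe sets rose often in these comparisons. Of 354 tested probe sets with a mean intensity above 3000, 104 (29.4%) were higher and 19 lower in FBB1.7 (34.7% either way), against 4.55% and 5.5% of all tested probe sets. In FBB1.10 57 of the 354 (16.1%) were higher and 5 lower (17.5% either way), and for the mean of the subclones 74 (20.9%) and 9 (23.4%). FBB1.5 had 9.04% called (8.19% higher) and FBB1.11 1.13%, all higher, and 27.4% differed between the subclones. Their median difference in FBB1.7 was 0.04. Of the 29 members 6 were above 3000 (Aldoa, Tpi1, Pgk1, Pgam1, Pkm and Ldha), and 5 of these rose in FBB1.7. The Gapdh control probe sets, not among the 354, were as bright, with means of 9334 to 11011 over the 10 arrays. How much of the rise of the enzymes goes with brightness was not tested, and quantile normalization, which equalises the bright end of the arrays, left Pgk1, Pkm and Ldha passing in FBB1.7 and took the calls of Tpi1 and Pgam1 on their brightest probe sets. On the other called probe sets it went the other way, with 1 of Tpi1 kept and 2 of Pgk1 lost. The 5 enzymes act between triose phosphate and lactate, a grouping noticed after their values were seen.

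The genes for transport and for directing sugar and pyruvate passed in no comparison on their main probe sets. Slc2a1 and Slc2a3 encode the glucose carriers GLUT1 and GLUT3, and Slc16a1 and Slc16a3 the lactate carriers MCT1 and MCT4. Pdk1, pyruvate dehydrogenase kinase 1, inhibits pyruvate dehydrogenase and so keeps pyruvate out of the citric acid cycle, and Pfkfb3 makes the activator of phosphofructokinase. Their differences from parental lay between -0.29 (Slc2a3 in FBB1.5) and 0.21 (Pfkfb3 in FBB1.5). Other probe sets of 2 of these genes did pass in FBB1.7. One of 4 for Pdk1 read 500.1 and 393 on the FBB1.5 arrays, 254 and 257 on those of FBB1.7, 339 and 309 on those of FBB1.10 and 401 and 368 on those of FBB1.11, against 447 and 383 in parental cells. Both FBB1.7 arrays were below all 8 others. That Pdk1 probe set fell by 0.66 in FBB1.7 (adjusted p = 0.0034, limma), whichever array was left out, while the brightest stood at -0.05. One of 4 for Slc2a3 read 84 and 53.5 in FBB1.7, against 37 and 27 in parental cells, the lower of them under the table median. It read 36.9 and 34.7 in FBB1.5, 60.9 and 52.7 in FBB1.10 and 60.2 and 49.1 in FBB1.11. Both arrays of FBB1.10 and FBB1.11 were thus also above both parental arrays, and no Slc2a3 probe set passed between the subclones (moderated F test). In FBB1.7 that probe set rose by 0.79 (adjusted p = 0.014, limma), a call lost without parental 2 or FBB1.7 1 (adjusted p at most 0.19). The brightest Slc2a3 probe set stood at -0.19.

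Egln1, Ankrd37 and Bnip3 differed between the subclones. Egln1 encodes PHD2, the main prolyl hydroxylase that marks HIF for destruction, and is itself a HIF target. It read 662 and 557 on the FBB1.5 arrays, 569 and 558 on those of FBB1.7, 746 and 727 on those of FBB1.10 and 814 and 802 on those of FBB1.11, against 779 and 758 in parental cells. FBB1.5 and FBB1.7 were below both parental arrays, FBB1.10 just below and FBB1.11 just above. Egln1 fell by 0.44 in FBB1.7 (SE 0.093, adjusted p = 0.0077, limma), on both of its probe sets (the other by 0.31, adjusted p = 0.050, a call lost without any array but parental 1), and stood at -0.33 in FBB1.5 (adjusted p = 0.086). The FBB1.7 call ended without either FBB1.7 array (adjusted p up to 0.064). Egln3, a related hydroxylase, was dim, at 28.5 to 47.0 on tagged arrays, against 39.2 and 31.5 in parental cells, and did not pass.

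Ankrd37, an ankyrin repeat gene induced by HIF, read 528 and 405 on the FBB1.5 arrays, 785 and 748 on those of FBB1.7, 806 and 664 on those of FBB1.10 and 642 and 663 on those of FBB1.11, against 658 and 701 in parental cells. Both FBB1.5 arrays were the lowest of the 10. Ankrd37 fell by 0.54 in FBB1.5 (SE 0.12, adjusted p = 0.031, limma), and its difference in FBB1.7 was 0.17 (adjusted p = 0.42). The FBB1.5 call ended without FBB1.5 2, parental 2, FBB1.11 1 or FBB1.11 2 (adjusted p at most 0.26). Bnip3, which marks mitochondria for removal in low oxygen, read 1403 and 1255 on the FBB1.5 arrays, 1778 and 1742 on those of FBB1.7, 1525 and 1371 on those of FBB1.10 and 1655 and 1567 on those of FBB1.11, against 1569 and 1540.7 in parental cells. By line mean FBB1.5 was lowest and FBB1.7 highest, with parental cells between them. Bnip3 passed in no subclone against parental (-0.23 in FBB1.5 and 0.18 in FBB1.7, adjusted p = 0.17 and 0.18) but differed between the subclones (adjusted p = 0.017, moderated F test), a call lost without FBB1.5 2 or either FBB1.7 array (adjusted p at most 0.11).

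**Figure D3:**
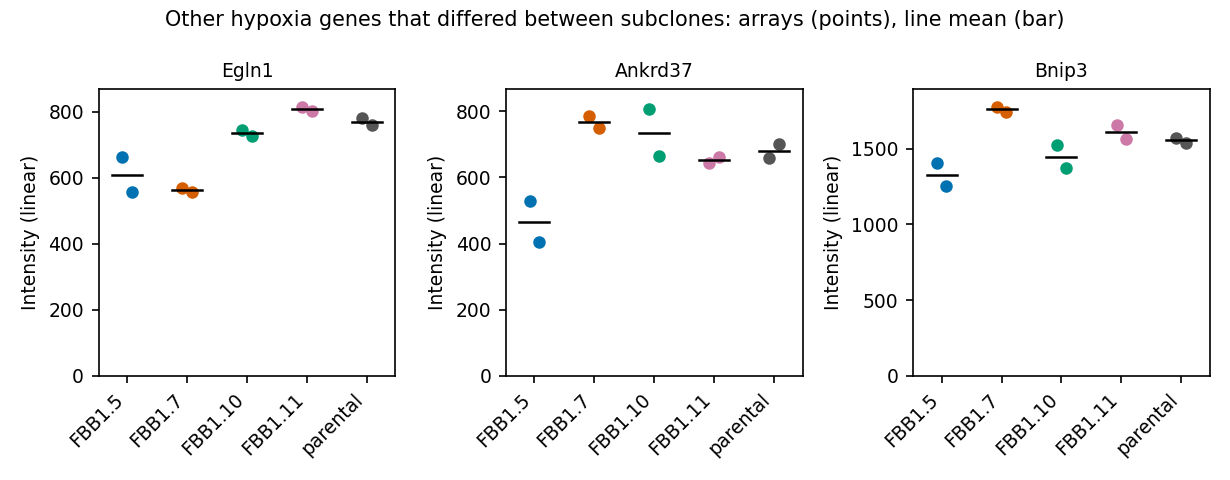
Panels plot linear intensity (vertical axis, from 0) of Egln1, Ankrd37 and Bnip3 on every array of the 4 subclones and the parental line, with points for arrays and bars for line means. FBB1.5 was lowest for Ankrd37 (528 and 405, against 658 and 701 in parental cells) and FBB1.7 for Egln1 in its mean.

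The remaining hypoxia genes other than Ndrg1 did not pass in any comparison. Vegfa encodes the main growth factor of blood vessels and Adm adrenomedullin, a vessel-widening peptide. P4ha1 is a collagen prolyl hydroxylase subunit, Mxi1 an antagonist of MYC, and Ddit4 (REDD1) an inhibitor of mTORC1. P4ha1 stood below parental in all 4 subclones, at -0.15 to -0.28, and Mxi1 at -0.08 to -0.40, the last in FBB1.7 with an adjusted p of 0.059 (limma). The other tested probe set of each went the opposite way, at 0.12 to 0.51 for P4ha1 and 0.11 to 0.43 for Mxi1, and did not pass, so neither gene has a settled direction. Adm was the dimmest member, at 33.5 and 32.8 on the FBB1.5 arrays, 23.4 and 24.0 on those of FBB1.7, 21.1 and 20.6 on those of FBB1.10 and 17.7 and 22.3 on those of FBB1.11, against 32.1 and 25.6 in parental cells. Only 3 of the 10 arrays were above the table median, so its level is not well above background. Adm and Egln3 were the 2 members not above that median on all arrays.

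Ndrg1 had the largest difference of the 29 members in FBB1.7, FBB1.10 and FBB1.11 and in the mean of the subclones. In FBB1.5 Ankrd37 (-0.54), Egln1 (-0.33) and Slc2a3 (-0.29) stood further from parental than Ndrg1 (-0.26). NDRG1 is a cytoplasmic protein induced by hypoxia, by metal chelators and during differentiation, and restrained by MYC. It read 792 and 633 on the FBB1.5 arrays, 593 and 537 on those of FBB1.7, 500.1 and 353 on those of FBB1.10 and 342 and 350.45 on those of FBB1.11, against 866 and 839.75 in parental cells. All 8 tagged arrays were below both parental arrays, and FBB1.5 was nearest to them. Ndrg1 fell by 1.26 in FBB1.11 (SE 0.14, adjusted p = 0.00073, limma), by 0.99 in FBB1.10 (adjusted p = 0.0023) and by 0.58 in FBB1.7 (adjusted p = 0.015). It stood at -0.26 in FBB1.5 (adjusted p = 0.41). Leaving out any array kept the calls in FBB1.10 and FBB1.11, and that in FBB1.7 ended without either FBB1.7 array (adjusted p up to 0.12). The mean of the subclones fell by 0.78 (SE 0.11, adjusted p = 0.0019, limma), whichever array was left out. With the line as a random block the same difference had an adjusted p of 0.43.

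All 5 Ndrg1 probe sets were below parental in each subclone. Of the 5, 4 passed for the mean of the subclones and the fifth stood at -0.44 (adjusted p = 0.051, limma), and 2 of the 4 calls ended without parental 1 (adjusted p = 0.081 and 0.062). By subclone 5 passed in FBB1.11, 4 in FBB1.10, 3 in FBB1.7 and 1 in FBB1.5. In FBB1.11 the 4 calls beyond the brightest probe set all ended without FBB1.11 2 and 3 of them without FBB1.11 1 (adjusted p up to 0.37), and 2 ended without either FBB1.7 array and 1 without parental 1. In FBB1.10 the 3 further calls ended without FBB1.10 2 (up to 0.34), and 1 of them without either parental array or either array of FBB1.7 or FBB1.11. In FBB1.7 all 3 ended without either FBB1.7 array, and the 2 further calls also without parental 1 and 1 of them without parental 2 (up to 0.17). The FBB1.5 call stood at -0.42 (adjusted p = 0.049) and was lost without any array but FBB1.10 1 or FBB1.10 2 (adjusted p up to 0.25). Within FBB1.11 they ranged from -0.61 to -1.26. Probe sets of 1 gene share the same RNA and are not replicates. Between the subclones Ndrg1 differed (adjusted p = 0.0016, moderated F test), on 4 of its 5 probe sets, and it was the 1 member that still passed this test without the variance trend (adjusted p = 0.047).

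**Figure D4:**
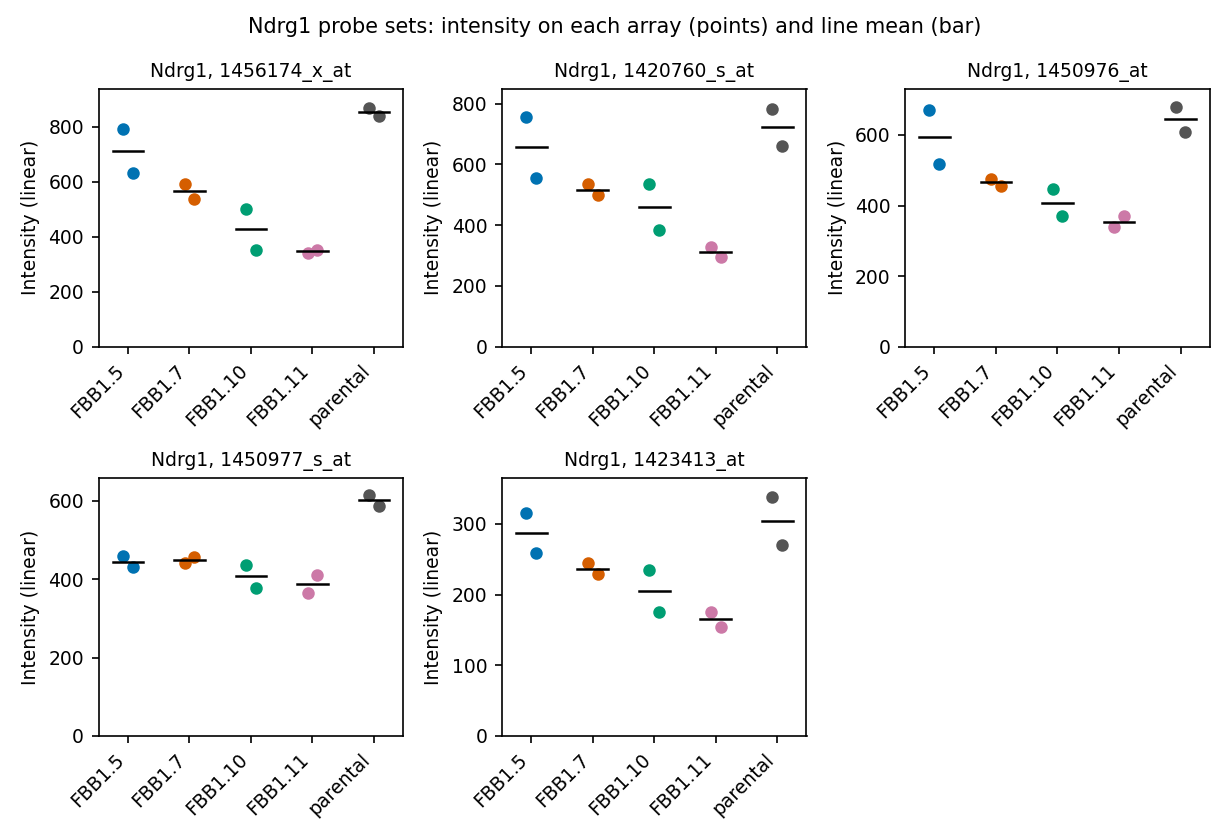
Each panel plots linear intensity (vertical axis, from 0) of 1 of the 5 Ndrg1 probe sets on every array of the 4 subclones and the parental line, with points for arrays and bars for line means. On the brightest, FBB1.11 read 342 and 350.45, against 866 and 839.75 in parental cells, and in every panel the mean of each subclone was below the parental mean.

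The differences of Ndrg1, Ldha and Pkm from parental are given here side by side. FBB1.11 had an Ndrg1 difference of -1.26, an Ldha difference of 0.10 and a Pkm difference of 0.14. FBB1.7 had -0.58 for Ndrg1 and 0.33 each for Ldha and Pkm. FBB1.10 had -0.99, 0.19 and 0.33, and FBB1.5 had -0.26, -0.01 and -0.04.

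As a group, the 13 enzymes had a median difference from parental of -0.02 for FBB1.5, 0.12 for FBB1.7, 0.09 for FBB1.10, 0.05 for FBB1.11 and 0.08 for the mean of the subclones. The 16 other hypoxia genes had -0.08, -0.05, -0.07, -0.05 and -0.07 in the same order, and all tested probe sets 0.02, 0.0037, 0.02, 0.01 and 0.01. Of the enzymes 12 of 13 were above 0 in FBB1.7, 8 in FBB1.10, 9 in FBB1.11 and 4 in FBB1.5. Among all 25061 tested probe sets 12678 were above 0 in FBB1.7, 13425 in FBB1.10, 13114 in FBB1.11 and 13570 in FBB1.5. After quantile normalization the enzyme median was 0.07 in FBB1.7 and -0.02 in FBB1.10, so the direction in FBB1.10 depends on the scaling. These medians get no test here, since the members were picked with results known.

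**Figure D5:**
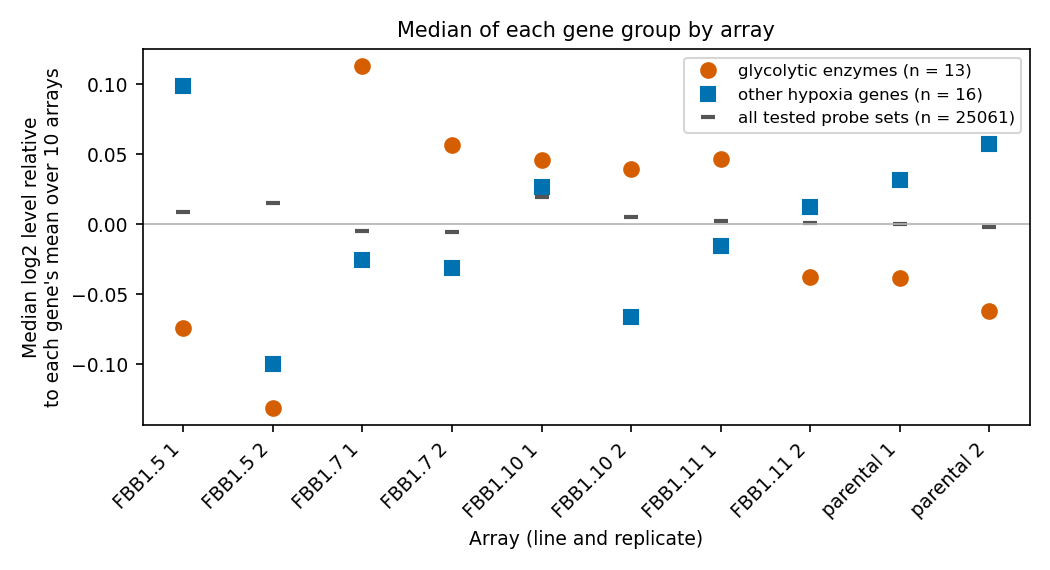
The vertical axis is the median, over the genes of a group, of the log2 level on an array relative to that gene's mean over the 10 arrays, with arrays of the 4 subclones and the parental line along the horizontal axis. Enzymes (circles, 13 genes) were above 0 on both arrays of FBB1.7 (0.11 and 0.06) and FBB1.10 (0.05 and 0.04) and below 0 on both arrays of FBB1.5 (-0.07 and -0.13), as on both parental arrays (-0.04 and -0.06). Squares are the 16 other hypoxia genes and dashes all 25061 tested probe sets.

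Of 71 further genes of these pathways, 56 were tested and 19 passed in some comparison, against 14% of all tested probe sets. Their counts were 12 of 56 in FBB1.7 (6 higher; 10.1% of all), 7 in FBB1.5 (3 higher; 2.02%), 4 in FBB1.10 (3 higher; 1.8%) and 0 in FBB1.11 (limma; 0.188%). In FBB1.11, 11 of the 56 had an unadjusted p under 0.05, against 2956 of all 25061 tested probe sets. For the mean of the subclones 7 passed (5 higher; 3.54% of all) and between the subclones 15 (7.24%). The 12 with the smallest p are described here. Hmox1, heme oxygenase 1, which breaks down heme and is induced by stress and by HIF, read 143.4 and 143.3 on the FBB1.5 arrays, 517 and 462 on those of FBB1.7, 405 and 311 on those of FBB1.10 and 196 and 190 on those of FBB1.11, against 164 and 179 in parental cells. FBB1.7 and FBB1.10 were far above parental cells and FBB1.5 below. Hmox1 rose by 1.43 in FBB1.7 (adjusted p = 1.5e-05, limma) and by 0.98 in FBB1.10 (adjusted p = 0.0013), whichever array was left out. Fbp2, a fructose bisphosphatase, which runs a step of glycolysis backwards, read 53.5 and 64.5 on the FBB1.5 arrays, 149.7 and 169 on those of FBB1.7, 89.5 and 116 on those of FBB1.10 and 70.6 and 69.3 on those of FBB1.11, against 53.7 and 49.4 in parental cells. Both arrays of 3 subclones were above both parental arrays. Fbp2 rose by 1.38 in FBB1.7 (adjusted p = 4.7e-05, limma) and by 0.80 in FBB1.10 (adjusted p = 0.011, lost without FBB1.10 2 at 0.13). Pklr, the pyruvate kinase of liver and red cells, rose by 0.66 in FBB1.7 (adjusted p = 0.013, limma) and 0.65 in FBB1.10 (0.044). It passed in neither FBB1.5 nor FBB1.11, but the mean of the 4 subclones rose by 0.53 (adjusted p = 0.027). The call for the mean was lost without parental 2, FBB1.7 1 or FBB1.11 1 (up to 0.41), so the rise is not shown to be particular to FBB1.7 and FBB1.10. It read 867 and 780.1 in FBB1.7 and 835 and 797 in FBB1.10, against 632 and 418 in parental cells, and its call in FBB1.7 was lost without parental 2 or FBB1.7 1 (adjusted p at most 0.12), and the FBB1.10 call without any array but parental 1, FBB1.5 1 or FBB1.5 2 (up to 0.28).

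FBB1.5, which had no enzyme past the threshold, had single genes called in neighbouring pathways. They were 2 of 6 tested pentose phosphate genes (1 higher) and 1 of 8 for pyruvate entry to mitochondria (higher). Of 17 further hypoxia response genes 4 passed (1 higher), against 2.02% of all probe sets. Whether these pathways differ as a whole was not tested, and the chromosomal position of the genes was not examined. Tkt, transketolase of the pentose phosphate pathway, read 4618 and 4566 in FBB1.5, against 2945 and 3038 in parental cells, and rose by 0.62 (adjusted p = 4.7e-05, limma). Pdhb, a subunit of pyruvate dehydrogenase, which carries pyruvate into the citric acid cycle, read 1583 and 1523 in FBB1.5, against 889 and 979.88 in parental cells, and rose by 0.72 (adjusted p = 0.00027). On both genes every other array, of 8, was below the FBB1.5 pair, and both calls held whichever array was left out. Taldo1, transaldolase, which works with transketolase, fell by 0.71 in FBB1.5 (adjusted p = 0.019), with 206 and 199 in FBB1.5, against 278 and 416 in parental cells, and the call ended without FBB1.5 1, FBB1.5 2 or parental 2 (adjusted p up to 0.12). Higd1a, a hypoxia-induced mitochondrial protein gene, fell by 0.39 in FBB1.5 (adjusted p = 0.0055, lost without FBB1.5 2 at 0.078).

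Fam162a, a hypoxia-responsive mitochondrial gene, read 1060.5 and 956 on the FBB1.5 arrays, 890.4 and 893 on those of FBB1.7, 1078 and 987 on those of FBB1.10 and 1263 and 1249 on those of FBB1.11, against 1295 and 1389 in parental cells. All tagged arrays were below both parental arrays. It fell by 0.58 in FBB1.7 (adjusted p = 0.00047, limma, whichever array was left out), by 0.41 in FBB1.5 (0.018, lost without FBB1.5 2 or parental 2) and by 0.37 in FBB1.10 (0.032, lost without any array but parental 1, FBB1.5 1 or FBB1.5 2), with adjusted p up to 0.16 and 0.21 in those cases. Bhlhe40, a HIF-induced repressor, fell by 0.49 in FBB1.5 (adjusted p = 0.044) and rose by 0.47 in FBB1.7 (0.021), and differed between the subclones whichever array was left out (adjusted p = 0.00074, moderated F test). Its fall in FBB1.5 was lost without any array but parental 1, FBB1.10 1 or FBB1.10 2 and its rise in FBB1.7 without FBB1.7 1, FBB1.7 2 or parental 1 (adjusted p up to 0.24 and 0.16). Cited2, a HIF-induced inhibitor that competes for HIF's coactivators, read 188 and 231 in FBB1.7, against 328 and 385 in parental cells, and fell there by 0.73 (adjusted p = 0.0032, limma, lost without FBB1.7 1 at 0.059). Pck2, mitochondrial PEP carboxykinase, fell by 0.35 in FBB1.7 (0.022, lost without parental 1, parental 2 or FBB1.7 2) and Tfrc, the transferrin receptor, by 0.33 (0.035, lost without parental 2 or either array of FBB1.7 or FBB1.11), with adjusted p up to 0.20 in both cases. The other 7 of the 19 (Ero1a, Pdha1, Arnt, Pdk2, Rpia, Dld and Pdhx) had larger p. Of 8 genes for HIF subunits and oxygen sensing, 4 stood below parental in FBB1.5, 6 in FBB1.10 and 6 in FBB1.11. Of all tested probe sets 45.9%, 46.4% and 47.7% did. In these subclones 0 of the 8 passed (limma), against 2.02%, 1.8% and 0.188% of all. An unadjusted p under 0.05 was seen for 1, 2 and 2 of them, against 3709, 3866 and 2956 of all 25061. In FBB1.7 all 8 stood below, against 49.4% of all tested probe sets, and 2 passed, against 10.1%. They were Cited2 and Arnt, HIF's constant partner subunit (-0.38, adjusted p = 0.041, lost without parental 2 or either array of FBB1.7 or FBB1.11, up to 0.22). Hif1a itself, the oxygen-regulated subunit, passed in no comparison, with differences of -0.04 to -0.36, and HIF is regulated mainly at the level of its protein.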

How the data were processed

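Total RNA of 10 samples of MEL lines (4 tagged subclones and the parental line, 2 arrays each) was hybridised as biotinylated cRNA to 1-colour Affymetrix mouse arrays, per the labels' protocols. The authors deposited 1 linear intensity per probe set and array. Their summarisation, background correction and normalization are not given in the sources used here. No scan or extraction batch is given in the labels.

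The intensities were used as deposited, as log2(intensity + 16). Probe sets above the table median of 30.5 on at least 2 of the 10 arrays were kept and 64 control probe sets left out, leaving 25061 of 45101. Names came from the platform annotation given with the data, which pairs 34958 probe sets with 1 symbol, 932 with several and 9211 with none. Only probe sets with 1 symbol were named. limma 3.58.1 (R 4.3.3, statmod 1.5.0) fitted the 5 line means with an intensity trend on 5 residual degrees of freedom, and separately tagged against parental with the line as a random block (consensus correlation 0.211). p-values are two-sided and adjusted by Benjamini-Hochberg at 0.05 over all tested probe sets. Each gene is read by its brightest probe set.

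The members and the lists were chosen with earlier results of these data known. All members are accounted for, values by array are given for members that passed any test, for Ldha and Ndrg1 and for the dimmest member, and of further pathway genes up to 12 with the smallest p are described. The other genes and probe sets named were chosen after their values were seen. On simulated data 100 probe sets were changed per size among 25061. The FBB1.7 comparison found 99 of 100 with a log2 change of 1 and 50 of 100 with a log2 change of 0.5. It made 5 false calls, and the test between the subclones, which found 98 and 61, made 2. With the changes put in all tagged arrays, the mean of the subclones found 97 and 69 and made 13 false calls. The fit with the line as a random block found 97 and 74 there and made 21. The simulated spread followed the intensity trend exactly, with none between clones, so on the real data fewer may be found. Changes as small as those of the 5 enzymes called in FBB1.7 were not simulated. The number of arrays limits the precision. Alternatives were the offset, filter, scaling, variance trend, probe set rule, actin ratio as covariate, replicate number as a block and leaving out arrays. Promoter letters were searched with Python 3.11.15.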

Additional observations from a re-analysis of the deposited data

Results flagged for a closer look

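The 4 subclones differed from each other, by a moderated F test of the differences themselves (limma, adjusted over all tested probe sets), in 9 of the 29 members. The adjusted p was 0.00049 for Ldha, 0.0016 for Ndrg1, 0.0019 for Pkm, 0.004 for Pgam1, 0.0051 for Ankrd37, 0.0076 for Egln1, 0.0093 for Pgk1, 0.016 for Tpi1 and 0.017 for Bnip3. Those of Ldha, Ndrg1, Pkm, Pgam1 and Egln1 held whichever array was left out. Those of Tpi1 (without FBB1.5 1, FBB1.7 1 or FBB1.7 2, up to 0.18), Pgk1 (without FBB1.5 2 or FBB1.7 1, up to 0.055), Bnip3 and Ankrd37 (without FBB1.5 2, 0.063) did not. Over the 8 tagged arrays, 0 of the 29 members had an array standing apart from the rest by Dixon's criterion. That criterion could hardly flag any here, since the 2 arrays of a deviating line hide each other. Differences between the subclones also widen the range it divides by.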

How the results depend on the processing

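Leaving out 1 array at a time, members passing numbered 2 to 3 of 29 for the mean of the subclones, 0 to 2 in FBB1.5, 3 to 8 in FBB1.7, 1 to 3 in FBB1.10, 1 to 1 in FBB1.11, 6 to 10 between the subclones and 0 to 0 with the line as a block. The median difference of the enzymes then ranged from 0.054 to 0.087 for the mean, -0.041 to -0.0029 for FBB1.5, 0.0789 to 0.213 for FBB1.7, 0.0457 to 0.130 for FBB1.10 and 0.0208 to 0.113 for FBB1.11. That of the other hypoxia genes ranged from -0.108 to -0.040 for the mean, -0.243 to -0.0169 for FBB1.5, -0.129 to -0.0478 for FBB1.7, -0.164 to -0.0081 for FBB1.10 and -0.105 to 0.0075 for FBB1.11. Ldha in FBB1.5 ranged from -0.0289 to 0.0117. Without the intensity trend 0 members passed for the mean or in any of the 4 subclones, and 1 between the subclones. For the mean, 1 member passed after median centring, with no filter, without both arrays of FBB1.7 and with the actin ratio as covariate. Over all probe sets, 887 passed for the mean, against 334 with no filter, 25 without the trend, 189 without both arrays of FBB1.7 and 198 with the actin covariate, and 2519 passed in FBB1.7, against 1628 with no filter and 1187 without the trend. FBB1.5, FBB1.10 and FBB1.11 had 507, 450 and 47, against 201, 119 and 16 with no filter and 22, 1 and 8 without the trend, and between the subclones 1814 differed, against 985 and 483. FBB1.5 had 2 members after quantile normalization and 0 with no filter, and FBB1.10 had 1 with no filter. After quantile normalization the enzyme median was 0.0189 for the mean, 0.0709 for FBB1.7 and -0.0185 for FBB1.10. With the mean of all probe sets of a gene it was 0.17 for FBB1.7 and 0.16 for FBB1.10, and the median of the other hypoxia genes in FBB1.5 was 0.0047. With probe sets above the table median on all 10 arrays that last median was -0.17. Without parental 2 and FBB1.5 1 together, an alternative added after seeing the data, the enzyme median was 0.16 for FBB1.7, 0.13 for FBB1.10 and 0.11 for FBB1.11, and that of the other hypoxia genes in FBB1.5 -0.29. The Ldha difference in FBB1.5, near 0, turned to 0.0117 without parental 2, 0.0033 with the actin covariate and 0.0054 without both those arrays. For single genes, 603 results kept direction and side of the threshold over all settings, 83 lost the call and 3 reversed. The cause was not tested. The 603 include comparisons of Ldha and Ndrg1 that had no call to lose, and settings that differ little from the main one. They are thus no measure of stability. Without the intensity trend 23 results lost the call and 6 stayed the same. Same-numbered arrays did not deviate together (pair correlations -0.16 to 0.18 over 10 pairs of lines, 1 above 0.1). With the replicate number as a block, 8 members passed in FBB1.7 (Mxi1 added, adjusted p = 0.028) and 10 between the subclones (Aldoa added, 0.038), and no other call changed.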
